A study of Mus musculus with 6 samples.

Results

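The genes described here encode MLC1, its partner GlialCAM and the channels, pumps and cotransporters that work beside them in the astrocyte membrane. They were taken by symbol from the deposited expression table: *Mlc1*, *Hepacam*, *Clcn2*, *Lrrc8a*, *Kcnj10*, *Kcnj16*, *Slc4a4*, *Atp1b2* and *Trpv4*, which are 9 of its 34745 genes. All 9 symbols were found, and 8 of the genes passed the filter on low values, which asked for at least 0.5 FPKM in at least 3 libraries and left 14147 genes. FPKM is a count of fragments divided by gene length and by the depth of the library. *Trpv4* did not pass it.

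Total RNA of mouse cerebral cortex, collected on postnatal day 8, was sequenced. The genotype of the 3 control samples was Pen-2 F/F, meaning that both alleles of the PEN-2 gene were floxed. The 3 samples of the Pen-2 cKO group had the genotype Pen-2 F/F; hGFAP-Cre, in which a transgene expresses Cre recombinase from a human GFAP promoter. Both groups thus carried the floxed alleles and Cre was present in the cKO group alone, so what Cre itself does and what the loss of PEN-2 does cannot be told apart. As background, hGFAP-Cre is known to act in cortical radial glia, from which neurons, astrocytes and oligodendrocytes descend, and not in astrocytes alone. The sources used here do not state strain, sex or whether each sample came from 1 animal, so p-values here reflect only how these samples vary, which may be technical.

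MLC1 is a membrane protein concentrated where astrocyte processes meet vessels and each other, and GlialCAM is the adhesion molecule that brings it to those contacts. Loss of either in humans gives a leukoencephalopathy with swollen white matter, and the pair is known to influence the chloride channel ClC-2 and the volume-regulated anion channel. Potassium released by neurons is taken up by astrocytes through Kir4.1 channels and the sodium pump, with bicarbonate cotransport and osmotic water movement alongside, and the endfoot around the vessel is a main site of this traffic.

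*Psenen*, which encodes PEN-2, had FPKM values of 6.35, 6.86 and 7.32 in control cortex against 3.56, 3.90 and 4.03 in cKO cortex, and the groups did not overlap. The smallest steps between deposited values implied 20254600 to 26817200 fragments per library. Of 10 astrocyte marker genes, 9 fell in cKO cortex (*Aldoc* and *Cldn10* with the smallest p) and none was at 0, and their summed level was 286 to 355 FPKM in control and 78.1 to 123.5 FPKM in cKO libraries. Among the cKO libraries, replicate 3 had the highest sum of astrocyte markers (123.5 FPKM, against 78.1 and 86.0), the highest *Ttr*, a choroid plexus gene (877 FPKM, against 324 and 182), and the highest value of 6 of the 9 genes described here. In bulk cortex, fewer cells of a type and less RNA per cell cannot be told apart.

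Of the 8 tested genes, 5 fell in cKO cortex and none rose: *Mlc1*, *Hepacam*, *Kcnj10*, *Kcnj16* and *Slc4a4* (limma, adjusted p under 0.05). Over all 14147 tested genes, 5.53% passed in either direction by the same rule, 1.87% lower and 3.67% higher. The median log2 fold change of the 8 was -1.31, against 0.07 over all tested genes. The share of calls over all genes that were higher was 66.3% as fitted and 47.4%, 50.4% and 78.8% with median-ratio, upper-quartile and equal-sum scaling, and without cKO replicate 3 it was 51.6%. The same 5 genes fell under each of these scalings. At an unadjusted p under 0.05, 6 of the 8 were lower, the sixth being *Atp1b2*, and 0 were higher, against 6.33% lower and 16.5% higher over all tested genes.

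**Figure D1:**
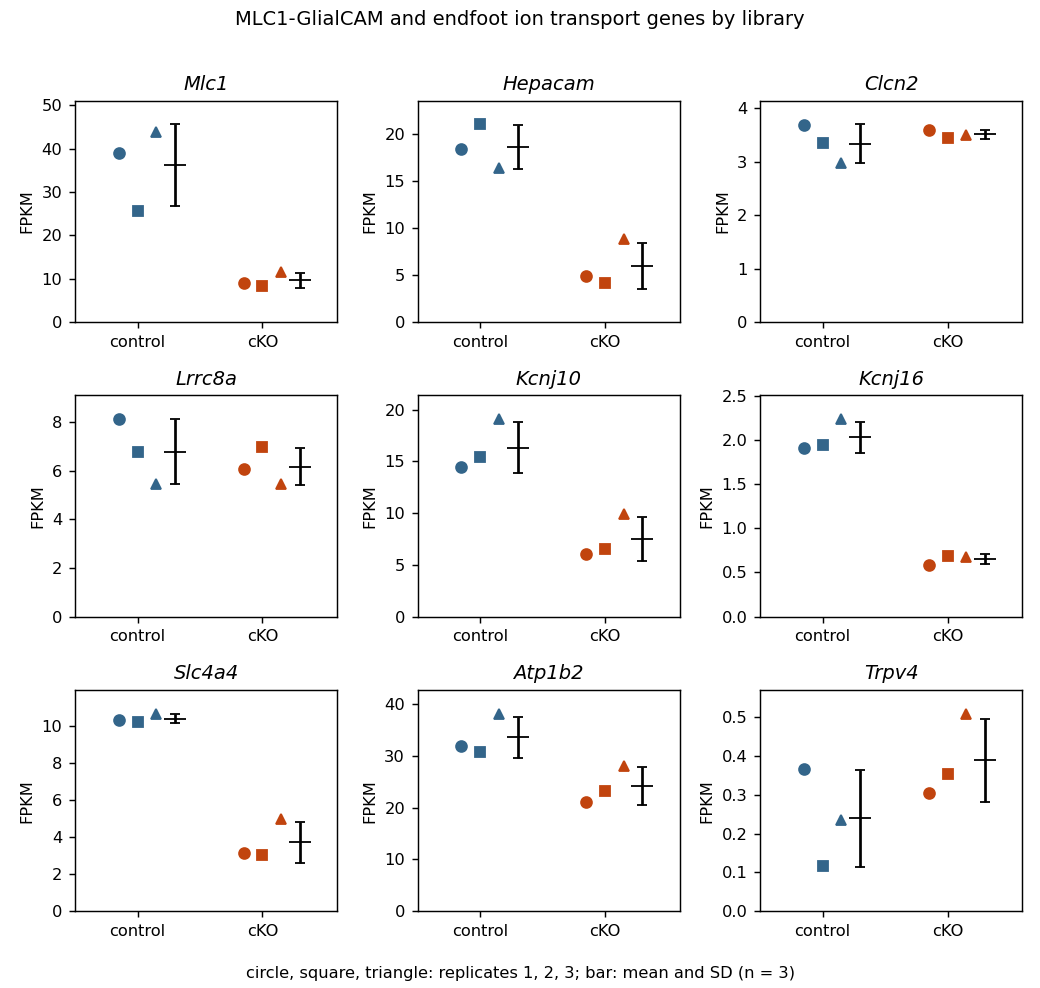
FPKM of each of the 9 genes in the 3 control (blue) and 3 cKO (red) libraries, with the group mean and SD (n = 3) as a black bar and each vertical axis starting at 0. The groups stood apart in 6 genes, with every cKO library below every control library, and overlapped in Clcn2, Lrrc8a and Trpv4; over all tested genes 8.17% stood apart lower and 21.5% higher.

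PEN-2 belongs to γ-secretase, a protease whose substrates include Notch, and promoter sequence is shown here for genes that fell together. RefSeq windows of 300 bases (GRCm38.p6), 250 before to 50 after a RefSeq start, were found for 8 members, 12 windows in all. The motif TGGGAA, the core bound by the Notch partner RBPJ, was searched on both strands. It was present in 4 of the 12 windows, of *Mlc1*, *Kcnj16* and *Slc4a4*, and in 25.6% of all 32817 promoter windows. The longer GTGGGAA, which contains it, was in 0 of the 12 and in 6.39% of all windows, and the nuclear factor I palindrome, TTGGC and GCCAA with 5 bases between them, in 0 of the 12 and in 0.0366% of all. Several of the 12 windows belong to *Kcnj16*, and others to *Clcn2*, *Lrrc8a* and *Trpv4*, which were not called lower. The window of *Hepacam*, which fell, held no match. The matches are given below on the strand of the gene, 5′ to 3′, with the motif or its reverse complement in capitals. The first base of the motif is counted from the RefSeq start of its window. The stretches are at chr15:88978708-88978737 and chr15:88978524-88978553 for *Mlc1*, chr5:88887120-88887149 for *Slc4a4* and chr11:110997338-110997367 and chr11:111023866-111023895 for windows 2 and 4 of *Kcnj16*. Each lies inside the span given below for its gene, as do the RefSeq starts used, so none is upstream of the whole gene. The *Mlc1* window and this *Slc4a4* window begin inside annotated exons.
Mlc1 at -172: ttcctttcctatTGGGAAagctccaagcca
Mlc1 at 13: cagaggccagctTTCCCAaccgccggacga
Slc4a4 at -128: ggccgcgccaacTTCCCAgcccacgccgcc
Kcnj16 at -137: catgagtaggcaTGGGAAccagttaaagaa
Kcnj16 at 19: tctcttctgtttTGGGAAgtagacaagaag

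*Kcnj10*, with 1 annotated transcript, has 1 start, and the 250 bases before it (chr1:172340960-172341209, plus strand) hold none of the 3 motifs. They are printed in lower case.
Kcnj10 upstream: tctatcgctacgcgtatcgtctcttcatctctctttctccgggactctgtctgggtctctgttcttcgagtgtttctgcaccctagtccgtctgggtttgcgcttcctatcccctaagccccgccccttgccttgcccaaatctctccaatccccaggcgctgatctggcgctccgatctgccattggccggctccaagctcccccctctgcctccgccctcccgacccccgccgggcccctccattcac
A match is a description of these letters, and none of the libraries measured binding at these promoters.

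*Mlc1* (ENSMUSG00000035805, mm10 chromosome 15, 88955884 to 88979007, minus strand) was 39.0, 25.7 and 43.8 FPKM across the controls, against 8.90, 8.39 and 11.6 FPKM across the cKO samples. The lowest control library, replicate 2, was still above the highest cKO library, replicate 3. The mean of the 3 libraries (± SD, here and below) fell from 36.1 ± 9.40 to 9.64 ± 1.74 FPKM, which left 26.7% of the control level. The log2 fold change was -1.87 (SE 0.21, 95% interval -2.38 to -1.36, limma adjusted p = 0.00583). It passed with each of the 6 libraries left out, with adjusted p between 0.00690 and 0.0326. Only 0.26% of tested genes had a lower log2 fold change.

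*Hepacam*, which encodes GlialCAM (ENSMUSG00000046240, chromosome 9, 37367368 to 37386572, plus strand), was 18.4, 21.0 and 16.4 FPKM across the controls, against 4.93, 4.15 and 8.80 FPKM across the cKO samples. Replicate 3 was the highest of the cKO libraries, and the groups did not overlap. The mean fell from 18.6 ± 2.33 to 5.96 ± 2.49 FPKM, or 32.0% of control, and its log2 fold change was -1.69 (SE 0.27), at a limma adjusted p of 0.0181. This call ended without control replicate 1 (adjusted p = 0.0657), control replicate 2 (0.0756) or cKO replicate 1 (0.0783), and without cKO replicate 3 the adjusted p was 0.000865 and the log2 fold change -2.01.

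The level of *Mlc1* divided by that of *Hepacam* in the same library was 2.12, 1.22 and 2.67 in control and 1.81, 2.02 and 1.32 in cKO cortex. The groups overlapped (2.00 ± 0.734 and 1.72 ± 0.359, exact permutation test, two-sided p = 0.6), so a difference in the size of the fall of the 2 partners was not detectable over these samples. With 3 samples against 3, the smallest p this test can give is 0.1. In all 7 such ratios were compared, and after Benjamini-Hochberg adjustment over them no exact permutation p was below 0.233.

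The chloride channel genes showed no such fall. *Clcn2*, which encodes ClC-2, the channel that GlialCAM binds (ENSMUSG00000022843, chromosome 16, 20702964 to 20717746, minus strand), was 3.69, 3.36 and 2.97 FPKM across the controls, against 3.59, 3.43 and 3.51 FPKM across the cKO samples. The cKO values lay inside the control range. The log2 difference was 0.07 (95% interval -0.18 to 0.33, limma adjusted p = 0.735), so a fall of the size seen in *Hepacam* lies outside the interval for whole cortex. The part of astrocytes in the *Clcn2* and *Lrrc8a* values was not tested. The ends of *Clcn2* share 82 and 85 exonic bases with *Polr2h* and *Fam131a* on the opposite strand, and the sources used here do not say whether counting used strand.

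*Lrrc8a*, the obligatory subunit of the volume-regulated anion channel (ENSMUSG00000007476, chromosome 2, 30237715 to 30263790, plus strand), was 8.12, 6.77 and 5.47 FPKM across the controls, against 6.07, 6.96 and 5.45 FPKM across the cKO samples. The groups overlapped almost fully, and the log2 difference was -0.13 (95% interval -0.49 to 0.24, limma adjusted p = 0.687). Its exons share 2853 bases with the overlapping gene model *Gm28035* on the same strand, which was at 1.11 to 2.12 FPKM, so fragments could have been divided between them.

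Both inward rectifier genes fell. *Kcnj10*, which encodes Kir4.1, the main potassium channel of astrocytes (ENSMUSG00000044708, chromosome 1, 172341210 to 172374085, plus strand), was 14.5, 15.4 and 19.1 FPKM across the controls, against 6.05, 6.53 and 9.90 FPKM across the cKO samples. It has 1 annotated transcript of 5407 bases, so its values could be turned back into fragments: 1696, 1690 and 2566 in control and 822, 921 and 1435 in cKO libraries, each within 0.008 of a whole number. The exact 95% Poisson intervals, which cover counting error only, were 767 to 880 for the library with the fewest fragments, cKO replicate 1, and 2468 to 2667 for the one with the most, control replicate 3. The mean fell from 16.3 ± 2.42 to 7.49 ± 2.10 FPKM, or 45.9% of control, and its log2 fold change was -1.14 (SE 0.19), at a limma adjusted p of 0.0204.

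With 1 library left out the *Kcnj10* call ended in 5 of 6 cases. Leaving out control replicate 1, 2 or 3 gave an adjusted p of 0.0586, 0.0756 or 0.0509, and leaving out cKO replicate 1, 2 or 3 gave 0.0626, 0.0750 or 0.00329. The log2 fold change stayed between -1.355 and -1.004 in these fits. Kir4.1 is also made by oligodendrocyte lineage cells, and 7 of 10 markers of that lineage rose (*Gpr17* and *Olig2* with the smallest p), with a summed level of 110.4 to 144.7 FPKM in control and 304 to 390 FPKM in cKO libraries and no marker at 0. The part of these cells in the *Kcnj10* values was not tested.

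*Kcnj16*, which encodes Kir5.1, a subunit that joins Kir4.1 in mixed channels (ENSMUSG00000051497, chromosome 11, 110968033 to 111027968, plus strand), was 1.91, 1.95 and 2.23 FPKM across the controls, against 0.584, 0.688 and 0.674 FPKM across the cKO samples. It was the member with the narrowest spread in cKO cortex after *Clcn2*, in SD as a share of the mean, and its cKO replicate 3 was not the highest. The mean fell from 2.03 ± 0.178 to 0.649 ± 0.0563 FPKM, or 32.0% of control (log2 fold change -1.51, SE 0.14, limma adjusted p = 0.00228), and it passed with every library left out (adjusted p 0.00477 to 0.0190). At merged exon length its values stand for about 58 to 219 fragments per library, and at the length of its shortest annotated transcript for 6 to 24. At this low level the fold change depended on the pseudocount: it was -0.88 with 1 FPKM and -1.63 with 0.01 FPKM added, and it passed with both.

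The ratio of *Kcnj10* to *Kcnj16* was 7.604, 7.93 and 8.54 in control and 10.4, 9.49 and 14.7 in cKO libraries. The groups did not overlap (8.02 ± 0.476 and 11.5 ± 2.78), at the smallest p that the exact permutation test can give, 0.1. The ratio of *Mlc1* to *Kcnj10* was 2.21 ± 0.517 in control and 1.31 ± 0.149 in cKO cortex, also without overlap and at the same exact p of 0.1.

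*Slc4a4*, the electrogenic sodium bicarbonate cotransporter NBCe1 (ENSMUSG00000060961, chromosome 5, 88886818 to 89239653, plus strand), was 10.3, 10.2 and 10.7 FPKM across the controls, against 3.13, 3.07 and 5.01 FPKM across the cKO samples. Its control libraries were close to each other, and cKO replicate 3 stood above the other cKO libraries. The mean fell from 10.4 ± 0.236 to 3.74 ± 1.10 FPKM, or 35.9% of control, and its log2 fold change was -1.49 (SE 0.18), at a limma adjusted p of 0.00550. It passed with every library left out (adjusted p 0.000360 to 0.0341).

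*Atp1b2*, the β2 subunit of the sodium pump, also known as an adhesion molecule on glia (ENSMUSG00000041329, chromosome 11, 69599736 to 69605942, minus strand), was 31.9, 30.7 and 38.1 FPKM across the controls, against 21.1, 23.2 and 28.1 FPKM across the cKO samples. All cKO libraries were below all control libraries, as in 8.17% of all tested genes, but the difference did not pass (33.6 ± 3.96 and 24.1 ± 3.63 FPKM, log2 difference -0.48, 95% interval -0.77 to -0.19, limma adjusted p = 0.0696). Without cKO replicate 3 it passed (adjusted p = 0.0302, log2 -0.60), and with each other library left out it did not (0.124 to 0.188).

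*Trpv4*, a calcium-permeable channel that opens on cell swelling (ENSMUSG00000014158, chromosome 5, 114622152 to 114658421, minus strand), was 0.366, 0.116 and 0.236 FPKM across the controls, against 0.303, 0.354 and 0.508 FPKM across the cKO samples. The groups overlapped, and at merged exon length these values stand for about 10 to 56 fragments per library. At the length of the shortest annotated *Trpv4* transcript they stand for about 2 to 11. In the fit with no filter on low values, over 23331 genes, its log2 difference was 0.57 (95% interval -0.21 to 1.36, limma adjusted p = 0.459). It was 0.166 with 1 FPKM added in place of 0.1, 0.282 without control replicate 2 and 0.838 without control replicate 1. Epithelium of the choroid plexus also expresses *Trpv4*. The 8 choroid plexus and ependyma markers summed to 37.9 to 184.8 FPKM in control and 187.0 to 891.8 FPKM in cKO libraries, most of it *Ttr*, with none at 0. Of the 5 tested, none passed in limma and 1 was higher at an unadjusted p under 0.05. Their part in the *Trpv4* values was not tested.

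**Figure D2:**
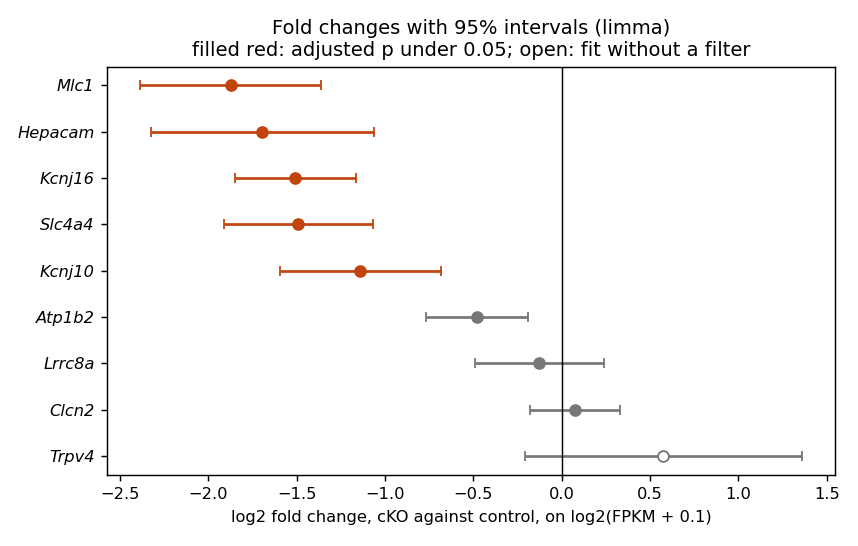
Log2 fold change of cKO against control with its 95% interval from limma, on the log2(FPKM + 0.1) scale, for the 8 tested genes (filled points, red where the adjusted p was under 0.05) and for Trpv4 from the fit with no filter (open point). The 5 red genes lie between -1.87 and -1.14, while the intervals of Lrrc8a, Clcn2 and Trpv4 include 0.

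The order of the levels changed between the groups. In control cortex *Mlc1* (36.1 FPKM) and *Atp1b2* (33.6 FPKM) were highest and overlapped, followed by *Hepacam* (18.6) and *Kcnj10* (16.3), which also overlapped, and then without overlap by *Slc4a4* (10.4), *Lrrc8a* (6.79), *Clcn2* (3.34), *Kcnj16* (2.03) and *Trpv4* (0.239). In cKO cortex *Atp1b2* (24.1 FPKM) stood alone at the top. Each of the next genes overlapped with its neighbour in the order *Mlc1* (9.64), *Kcnj10* (7.49), *Lrrc8a* (6.16), *Hepacam* (5.96), *Slc4a4* (3.74) and *Clcn2* (3.51). *Kcnj16* (0.649) and *Trpv4* (0.388) were lowest and did not overlap. All are FPKM, a scale per gene length.

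The other genes of these families were described with lists chosen by family membership. Of 65 such genes, 46 were tested, 2 fell and none rose, with a median log2 difference of 0.03. At an unadjusted p under 0.05, 8 were lower and 3 higher, beside the 6.33% and 16.5% of all tested genes. Both genes that fell were among 10 genes whose products are associated with MLC1, GlialCAM or the dystrophin complex at the endfoot: *Aqp4*, the water channel, at 37.8, 36.7 and 40.6 FPKM across the controls, against 10.5, 10.4 and 23.2 FPKM across the cKO samples (log2 fold change -1.49, limma adjusted p = 0.0462), and *Dtna*, which encodes α-dystrobrevin, at 14.8 and 10.98 FPKM on average (log2 fold change -0.42, limma adjusted p = 0.0461). With 1 library left out both calls ended, except that *Aqp4* passed without cKO replicate 3 (adjusted p = 0.000122) and *Dtna* without control replicate 3 (0.0204). *Gja1*, the connexin that GlialCAM also binds, was 41.2 ± 4.67 and 18.7 ± 8.69 FPKM, and did not pass (log2 difference -1.23, limma adjusted p = 0.0851). *Gpr37l1* and *Gprc5b*, receptors found in the same complex, differed by 0.24 and -0.27 on the log2 scale, and neither passed.

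None of the 8 tested LRRC8 and CLC chloride channel genes passed in limma, and 0 had an unadjusted p under 0.05. *Clcn4* was 68.7 and 65.8 FPKM and *Lrrc8b*, which can join LRRC8A, 40.1 and 38.2 FPKM. Of 11 other inward rectifiers none passed, with 1 lower and 1 higher at an unadjusted p under 0.05. *Kcnj4*, a neuronal channel gene, was 32.2 and 31.5 FPKM. *Kcnj9*, which lies 11892 bases before *Kcnj10*, was 13.3 and 10.9 FPKM (log2 difference -0.34). Without cKO replicate 3, where it was 6.84 FPKM, its log2 difference was -0.034. *Kcnj2*, 38196 bases after *Kcnj16*, was 2.01 and 2.02 FPKM (log2 difference -0.01). Of 10 other sodium pump subunits none passed, with 1 lower and 1 higher at an unadjusted p under 0.05, and *Atp1b1* and *Fxyd6* were 287 and 294 and 236 and 256 FPKM. Of 6 other bicarbonate and proton exchangers none passed, with 1 lower and 0 higher at an unadjusted p under 0.05: *Slc4a10* was 18.4 and 18.0 FPKM and *Slc4a3* 12.9 and 13.6 FPKM. *Trpv2* was the only other TRPV gene tested, at 6.69 and 7.28 FPKM, and *Trpv3* was listed at 0.259 and 0.161 FPKM, below the filter.

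**Figure D3:**
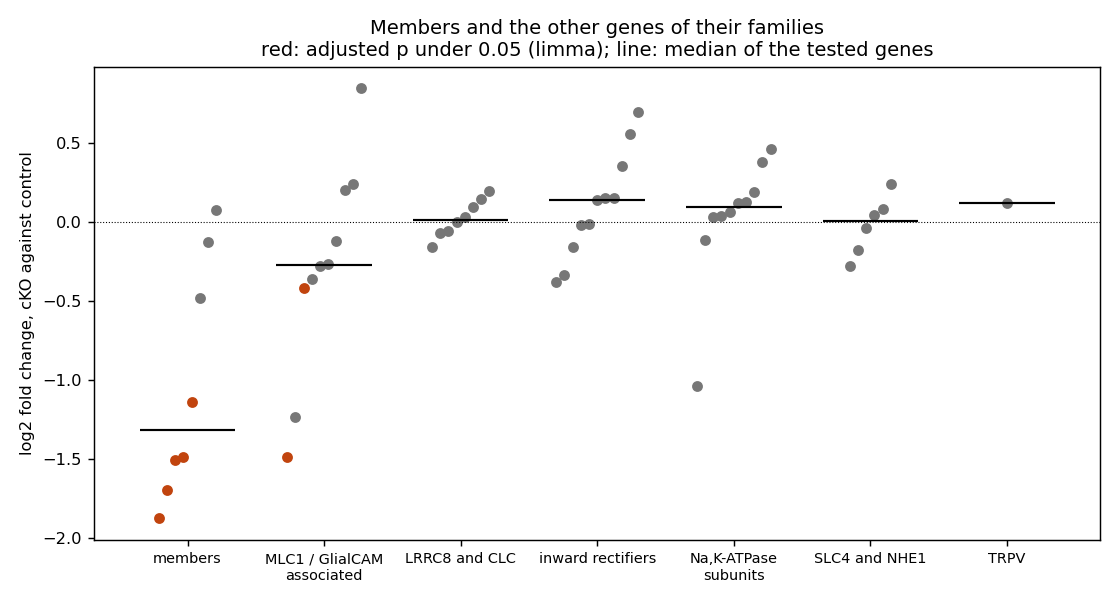
Log2 fold change of each tested gene, for the 8 members and for the 6 lists of related genes, with the median of each as a black line and genes with an adjusted p under 0.05 in red (limma). The 5 red members lie below -1, and among the MLC1 and GlialCAM associated genes Aqp4 and Gja1 lie in the same range, of which Aqp4 passed.

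The falls were set against 10 astrocyte markers measured in the same libraries, as the log2 level of a gene minus the mean log2 level of the markers. That list was chosen with its fall in these data already known, and its own mean dropped by 2.13 on the log2 scale. *Mlc1* was 1.09 ± 0.489 above the markers in control and 1.34 ± 0.202 above them in cKO libraries, and the groups overlapped (exact permutation test, two-sided p = 0.7). The difference for *Mlc1* was 0.25. In the other members the cKO libraries all lay above the control libraries on this relative scale. The difference was 0.43 for *Hepacam*, 0.62 for *Kcnj16*, 0.64 for *Slc4a4* and 0.99 for *Kcnj10*, each with p = 0.1, the smallest the exact permutation test can give (0.111 adjusted over 10 genes). It was 1.65 for *Atp1b2*, 2.00 for *Lrrc8a*, 2.20 for *Clcn2* and 2.70 for *Trpv4*, at the same exact p. A gene that fell less than the markers lies higher on this scale by construction, so these p-values are no result about the gene itself. For *Lrrc8a* and *Clcn2* the difference is close to the fall of the markers alone. For *Kcnj10* the values were -0.04, -0.20 and 0.18 in control and 0.988, 1.001 and 0.903 in cKO libraries, so on this scale cKO replicate 3 did not stand above the other two.

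**Figure D4:**
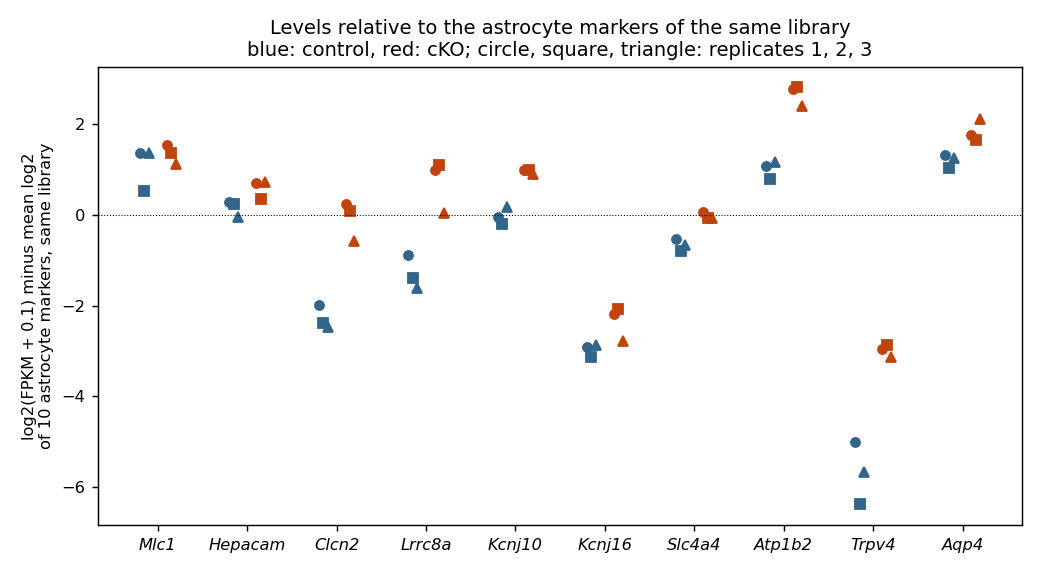
Log2(FPKM + 0.1) of each gene minus the mean of 10 astrocyte markers in the same library, for the 9 genes and Aqp4, with control libraries in blue and cKO libraries in red. Mlc1 overlaps between the groups, while the cKO points of the other genes lie above the control points. A gene that fell less than the markers lies higher here by construction.

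Among all tested genes, those with the profile over the 6 libraries most like *Mlc1* were *Mfge8*, *Slc14a2*, *Tst*, *C030005K06Rik* and *Slc13a5*, with a root mean square distance of 0.118 to 0.234 between log2 values centred on each gene's mean. Those nearest to *Hepacam* were *Daam2*, *Sdc4*, *Pdk4*, *Sox9* and *Slc1a3* (0.123 to 0.174), and those nearest to *Kcnj10* were *P4ha3*, *Gm13111*, *AW047730*, *Pon2* and *Lrp4* (0.0900 to 0.123). Of the other members, *Slc4a4* was the nearest to each of the 3, at rank 22 for *Mlc1*, 11 for *Hepacam* and 39 for *Kcnj10*. *Hepacam* was at rank 58 for *Mlc1*, at a distance of 0.390. *Clcn2* and *Lrrc8a* were at ranks 3403 to 7331 in the 3 orders. The ranks describe 6 libraries that share 1 contrast. *P4ha3* and *Gm13111* did not pass (limma adjusted p = 0.0512 and 0.0707). *Slc14a2* and *C030005K06Rik* averaged 0.197 and 0.117 FPKM in cKO libraries, close to the 0.1 FPKM added before the logarithm. The log2 fold change of *C030005K06Rik* was -0.788 with 1 FPKM and -2.936 with 0.01 FPKM added.

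**Figure D5:**
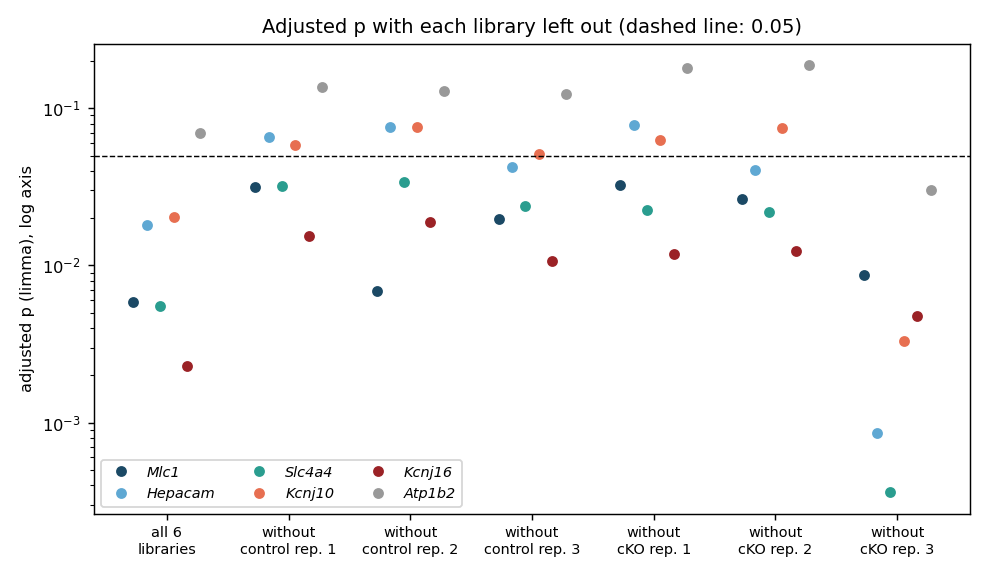
Adjusted p from limma (log axis) for 6 genes with all libraries and with each library left out in turn; the dashed line marks 0.05. Mlc1, Slc4a4 and Kcnj16 stay below the line throughout, Hepacam crosses it in 3 of 6 cases and Kcnj10 in 5 of 6, and Atp1b2 is below it only without cKO replicate 3.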

How the data were processed

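Expression was measured in 6 libraries, 3 per group, made from total RNA (per the labels' protocols, VAHTS Universal V6), on mm10 per the submitters' processing notes. The sources used here name no aligner, counting program, annotation or strand setting. The deposited values are FPKM per the file headers, whatever the name of the series table says of counts, and the per-library tables held identical values. In genes with 1 annotated transcript (GENCODE M21), FPKM times length fell on whole multiples of 1 fragment, which gave the depth. For 90.3% to 91.2% of these values, up to 300 fragments, the result was within 0.01 of a whole number. Counts of genes with several transcripts could not be recovered, so no count test was run.

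The test was limma 3.58.1 in R 4.3.3, with a mean-variance trend and robust variances, on log2(FPKM + 0.1) for 14147 genes, and the model held group alone. Adjustment of p-values was by Benjamini-Hochberg over all tested genes, with calls under 0.05. The steps were tested on simulated data. Fold changes on this scale understate the change of low genes. The authors' deposited p-values and group values in FPKM were used only for the closing observations. The members, the 6 lists of related genes and the 7 marker lists were chosen with earlier results of these data known. All members were named, and from each list of related genes up to 3 called genes, or the 2 highest, and from each marker list up to 2 called genes or the 2 highest; *Gja1*, *Gpr37l1*, *Gprc5b*, *Kcnj2* and the genes of the closing observations were named after their values were seen. In the marker lists not given in the report, 3 of 6 meningeal genes rose (*Lum* and *Dcn* first) and 1 of 6 endothelial genes rose (*Cdh5*). None of 6 microglial genes passed (*C1qa* and *Csf1r* highest), and of 8 neuronal genes *Gad1* rose and *Tubb3* fell. At an unadjusted p under 0.05, 4 meningeal, 3 endothelial, 3 microglial and 2 neuronal genes were higher, and 2 neuronal genes were lower. Over all tested genes 3.67% rose and 1.87% fell, and 16.5% were higher and 6.33% lower at the unadjusted threshold. A gene of the related lists is counted but its own result is not reported here. Alternatives varied the filter, pseudocount, scaling, limma options, a replicate block and each library left out. Tables were handled with Python 3.11.15, pandas 2.3.3, NumPy 2.4.6 and SciPy 1.17.1.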

Additional observations from a re-analysis of the deposited data

How the results depend on the processing

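The 5 members that fell also did so under all 9 alternatives of filter, pseudocount, scaling and limma options, and none rose under any alternative. With 1 library left out, 3 to 6 members fell: *Mlc1*, *Kcnj16* and *Slc4a4* in all 6 cases, *Hepacam* in 3 and *Kcnj10* in 1. Of the related genes, 0 fell with no filter, 1 with equal sums and 0 with no mean-variance trend, against 2; with 1 library left out 0 to 3 fell and 0 to 1 rose. Over all genes 783 were called, against 499 with no filter and 220 to 842 with 1 library left out. The median log2 fold change of all genes was 0.07, and -0.00, 0.01 and 0.12 with median-ratio, upper-quartile and equal-sum scaling. Signs turned only in genes that did not pass. *Atp1b1* was -0.035 with median-ratio and -0.022 with upper-quartile scaling. Equal sums gave 0.03 for *Kcnj4* and 0.011 for *Slc4a10*. With 1 library left out the ranges were -0.004 to 0.147 for *Clcn2*, -0.27 to 0.01 for *Lrrc8a*, -0.108 to 0.079 for *Kcnj4*, -0.012 to 0.098 for *Atp1b1* and -0.182 to 0.068 for *Slc4a10*. The cause was not tested. *Trpv4* rests on 10 to 56 fragments per library at merged exon length, and on 2 to 11 at that of its shortest annotated transcript.

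The groups share replicate numbers. Deviations of same-numbered samples from their group means correlated at 0.06, 0.01 and 0.10, and cKO replicate 2 was nearest to control replicate 1 (0.06). With 3 samples per group these correlations cannot show whether same-numbered samples were paired or shared a batch. With a replicate block the SE was smaller for *Mlc1* (0.109 against 0.215) and *Kcnj10* (0.09 against 0.193). It was not smaller for *Hepacam* (0.266 in both) or *Kcnj16* (0.148 against 0.145). With the replicate block, 456 genes were called and 6 members fell, the sixth being *Atp1b2* (adjusted p = 0.0305).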

Other observations

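The nearest tested gene on each side of each member, leaving out genes that overlap the member, was looked at after the values were seen. Of these 18 neighbours, 3 passed and all rose, where 5.53% of all tested genes passed and 3.67% rose: *Pim3* beside *Mlc1*, from 19.9 ± 0.939 to 25.6 ± 2.36 FPKM (log2 fold change 0.36, limma adjusted p = 0.0465), and both neighbours of *Trpv4*. *Fam222a*, 8932 bases from *Trpv4* on the side of lower coordinates, rose from 1.76 ± 0.359 to 3.29 ± 0.456 FPKM (limma adjusted p = 0.0349), and *Gltp*, which encodes a glycolipid transfer protein, 10977 bases away on the other side, from 5.91 ± 1.16 to 13.3 ± 2.23 FPKM (limma adjusted p = 0.0112). No neighbour of the 5 genes that fell was lower by the test.

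The authors' deposited table calls *Mlc1*, *Hepacam* and *Slc4a4* down and none of the other members. It leaves *Kcnj10* uncalled at a q of 0.00114 in the authors' deposited table, and *Kcnj16* at a q of 0.0528. Its group values are not the means of the deposited libraries. For *Kcnj16* the authors' deposited table gives 1.65 FPKM for control and 0.769 FPKM for cKO, both outside the range of the 3 libraries of the group (1.91 to 2.23 and 0.584 to 0.688 FPKM). For *Mlc1* it gives 14.1 FPKM for cKO, above all 3 libraries (8.39 to 11.6 FPKM), and for *Aqp4* 30.7 FPKM, against 10.4 to 23.2 FPKM. *Aqp4* and *Psenen* both fell by limma here. The authors' deposited table leaves them uncalled, at a q of 0.813 and 0.592. Among 12363 genes with such a value and a mean of at least 1 FPKM, the authors' deposited cKO value lay outside the range of the 3 cKO libraries in 32.6% and the control value outside the range of the 3 control libraries in 8.3%. The sources used here do not say how those group values were made.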
